A study of Mus musculus with 7 samples.

Results

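The genes described here make ribosomes, or supply the polyamines and pyrimidines that growing cells consume. The list has 42 genes: nucleolar processing factors, RNA polymerase I and its initiation factors, and 3 MYC-responsive metabolic enzymes. Each gene was represented by its brightest Affymetrix probe set, by mean over the 7 arrays, among probe sets whose annotation names 1 gene, and TG was compared with WT. That gave 40 measured genes of 18193 on the array. Npm3 and Mrto4 were not analysed here. The TG group is 3 Eu-miR-155 Transgenic mice, which carry the microRNA miR-155 under the Eu enhancer of the immunoglobulin heavy chain locus, an element active in the B lineage. The WT group is 4 mice without it. Both groups are of the FVB background, and B-cells were isolated from spleen with a magnetic kit. No age is stated. Messenger RNA was measured on 1 array per sample, as GCRMA values on a log2 scale, and differences are TG minus WT.

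Ribosomes are assembled in the nucleolus. RNA polymerase I transcribes the ribosomal RNA precursor, small nucleolar ribonucleoproteins modify it, and a large set of processing factors cuts, folds and exports the small and large subunits. These genes are known as targets of MYC, and their messenger RNAs are known to rise when resting B cells are stimulated to grow. A microRNA pairs with messenger RNAs through its seed, bases 2 to 8. The mature form encoded by the transgene is shown to identify it, from RefSeq on GRCm38.p6 (mouse, chr16:84714143-84714165, plus strand), with the seed in capitals:
mmu-miR-155-5p: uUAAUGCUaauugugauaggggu

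Several arrays stood apart before any comparison. The sex-linked genes placed WT replicates 3 and 4 as male, with Xist at 2.22 and 2.81, and the other 5 arrays as female, with Xist at 13.61 to 13.93. TG replicate 3 carried T cell messenger RNA: Cd3d was at 10.70 there, against 2.25 and 2.19 on TG replicates 1 and 2 and 2.17 on every WT array. B cell messenger RNA was present on every array: 7 of 8 B cell markers were measured, and all 7 were above background, a value of 4. This does not show how pure the samples were. The 10 granulocyte markers summed to 15723 to 31757 in linear signal on the TG arrays and to 74.3 to 249.8 on the WT arrays. Array medians were 3.05, 3.09 and 3.39 on the TG arrays and 2.96 to 2.97 on the WT arrays. The base of the logarithm is inferred from the range of the values, which do not appear to be centred per gene.

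In the TG samples 3 of the 40 members (7.5%) passed as higher: Srm, Nhp2 and Ebna1bp2. No member fell by the same test, limma with Benjamini-Hochberg adjustment at an adjusted p under 0.05. Of all 9517 genes tested, 8.11% passed as higher and 2.56% as lower, so 3 higher and 0 lower of 40 were close to or below the background. At an unadjusted p under 0.05 there were 11 members higher and 2 lower, beside 20% and 11% of all genes. The median change of the members was 0.13 on the log2 scale, against 0.00 over all genes tested, and 30 of the 40 changes were positive. The changes themselves ran from -0.24 to 0.65. For the 37 members that did not pass, the 95% intervals of the fold lay between 0.716 and 1.51. The interval lay within 1.5-fold in both directions for 37 of all 40 members (92.5%), and for 68.4% of all genes tested. All 40 measured members passed the filter on dim probe sets, with values from 6.38 to 14.50. The 3 TG arrays were all above the 4 WT arrays for 10 members, beside 19.5% of all genes, and all below them for 1 member, Ubtf, beside 10.4%.

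**Figure D1:**
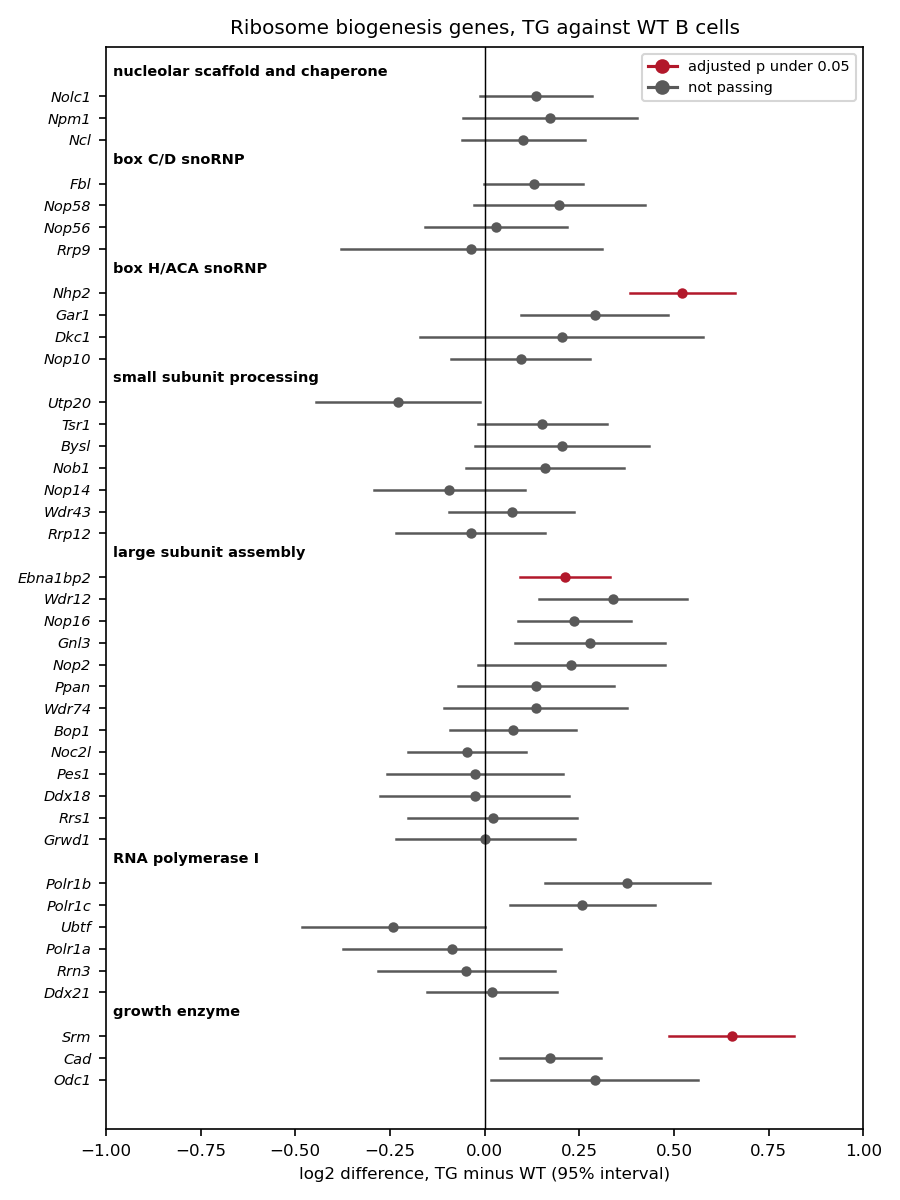
Log2 difference between TG and WT B-cells (horizontal axis) for the 40 measured genes, grouped by role, with points for the limma estimate and lines for its 95% interval (3 TG and 4 WT arrays). Red marks Srm, Nhp2 and Ebna1bp2, which passed an adjusted p of 0.05; most other intervals include 0.

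Promoters were read for the MYC-type E-box, CACGTG, which reads the same on both strands, because the list was drawn up around MYC-responsive genes. RefSeq on GRCm38.p6 gave windows of 250 bases before and 50 bases after the gene start for 36 of the 42 listed genes. The motif was in a window of 7 of these 36 genes (19.4%), Utp20, Nop2, Tsr1, Wdr43, Rrn3, Pes1 and Grwd1, and in 12.6% of the tested genes that had a window. Over all windows of this length the share was 7.15%. None of these 7 genes passed the test, beside 8.11% of all genes tested as higher and 2.56% as lower. At such shares 7 genes are too few for a comparison. The smallest limma adjusted p was 0.151, for Utp20. The part of the motif in the changes was not tested. Of the genes that rose, Nhp2 and Ebna1bp2 held no CACGTG in their windows, and Srm was not looked at. Shown are the 2 windows with the motif whose genes had the smallest p, Utp20 (chr10:88826765-88827064, minus strand) and Nop2 (chr6:125131633-125131932, plus strand), and that of Nhp2 (chr11:51619523-51619822, plus strand), chosen after its value was seen as a gene that rose without the motif. Capitals mark CACGTG, which begins 37 bases after the gene start in Utp20 and 60 bases before it in Nop2.
Utp20: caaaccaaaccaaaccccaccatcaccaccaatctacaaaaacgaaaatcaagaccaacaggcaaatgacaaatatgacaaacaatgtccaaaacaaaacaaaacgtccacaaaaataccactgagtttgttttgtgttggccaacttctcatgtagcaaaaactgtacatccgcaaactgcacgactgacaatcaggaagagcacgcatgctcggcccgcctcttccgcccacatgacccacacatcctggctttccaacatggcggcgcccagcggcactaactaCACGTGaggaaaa
Nop2: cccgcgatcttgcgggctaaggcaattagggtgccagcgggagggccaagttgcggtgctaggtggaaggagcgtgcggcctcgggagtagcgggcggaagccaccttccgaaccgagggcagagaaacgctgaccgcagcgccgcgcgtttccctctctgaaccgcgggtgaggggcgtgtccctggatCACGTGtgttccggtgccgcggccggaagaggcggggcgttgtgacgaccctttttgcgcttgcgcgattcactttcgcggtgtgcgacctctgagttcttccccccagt
Nhp2: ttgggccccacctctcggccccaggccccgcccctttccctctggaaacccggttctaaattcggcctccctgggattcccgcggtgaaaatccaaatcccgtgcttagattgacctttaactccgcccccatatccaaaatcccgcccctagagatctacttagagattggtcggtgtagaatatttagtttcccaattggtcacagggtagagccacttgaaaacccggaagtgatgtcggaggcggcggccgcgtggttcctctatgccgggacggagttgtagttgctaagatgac

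Among the growth enzymes Srm, which encodes spermidine synthase, rose the most of the 40 members. Srm was at 10.33, 10.49 and 10.48 on the TG arrays, against 9.89, 9.78, 9.77 and 9.69 on the WT arrays. The groups were separated by 0.44, and no TG array stood apart. The difference was 0.65 ± 0.07 (SE), a 1.57-fold increase (limma adjusted p = 0.00814). The call was lost without TG replicate 2 (limma adjusted p = 0.0528), with the change still at 0.62. Odc1, encoding ornithine decarboxylase, which makes the putrescine that spermidine synthase uses, was at 12.51, 12.53 and 12.66 in TG and at 12.16, 12.50, 12.05 and 12.38 in WT. The groups did not overlap, but the highest WT array lay only 0.01 below the lowest TG array. The difference of 0.29 ± 0.11 (SE) did not pass (limma adjusted p = 0.151), and its 3 probe sets gave 0.29, 0.16 and 0.39. Cad, the enzyme of the first steps of pyrimidine synthesis, was at 9.42, 9.49 and 9.37 in TG and at 9.31, 9.26, 9.23 and 9.20 in WT, again without overlap. Its difference of 0.17 ± 0.06 (SE) did not pass (limma adjusted p = 0.0985), and a dimmer probe set gave 0.07.

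In the box H/ACA particle, which converts uridines of ribosomal RNA to pseudouridine and also belongs to telomerase, Nhp2 rose and the other 3 proteins did not pass. Nhp2 was at 11.04, 11.07 and 11.13 on the TG arrays, against 10.65, 10.59, 10.45 and 10.55 on the WT arrays, with a gap of 0.39 between the groups. The difference was 0.52 ± 0.06 (SE), 1.44-fold (limma adjusted p = 0.00956). A second probe set of Nhp2 also passed (0.54, limma adjusted p = 0.0163). Without TG replicate 2 the call was lost (limma adjusted p = 0.0561), with the change at 0.53. Gar1 was at 9.82, 9.89 and 9.86 in TG and at 9.72, 9.61, 9.53 and 9.40 in WT, a difference of 0.29 ± 0.08 (SE) that did not pass (limma adjusted p = 0.0717). Its TG arrays lay close together and above every WT array. Dkc1, the pseudouridine synthase itself, was at 11.63, 11.75 and 11.86 in TG and at 11.84, 11.61, 11.16 and 11.55 in WT, so the groups overlapped. Its 3 probe sets gave differences of 0.20, 0.28 and 0.00, none of which passed. The first was 0.08 without WT replicate 3, its lowest array, 0.30 without WT replicate 1, its highest WT array, and 0.01 with Xist as a covariate. Nop10 had a difference of 0.10 (limma adjusted p = 0.424). The mean log2 value of the 4 genes was 10.98, 11.04 and 11.01 on the TG arrays, against 10.84, 10.78, 10.60 and 10.71 on the WT arrays.

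Of 13 genes for assembly of the large subunit, 1 passed as higher and 0 as lower, beside 8.11% and 2.56% of all genes. At an unadjusted p under 0.05 by limma, 4 were higher and 0 lower, beside 20% and 11% of all genes. Ebna1bp2, whose yeast counterpart Ebp2 is needed to process large-subunit ribosomal RNA, was at 10.12, 10.14 and 10.19 on the TG arrays and at 9.92, 10.02, 9.93 and 9.89 on the WT arrays. The groups did not overlap, and the difference was 0.21 ± 0.05 (SE), 1.16-fold (limma adjusted p = 0.0483). This call was lost when any 1 of the 7 arrays was left out (limma adjusted p = 0.0679 to 0.132), with the change at 0.19 to 0.24. Wdr12, which with Pes1 and Bop1 forms the PeBoW complex of large-subunit maturation, was at 8.87, 8.97 and 8.94 in TG and at 8.71, 8.58, 8.41 and 8.64 in WT. It missed the threshold by its brightest probe set (0.34 ± 0.08 SE, limma adjusted p = 0.0511), and a dimmer probe set gave -0.07. Its partners lay near 0, Bop1 at 0.08 (-0.19 by another probe set) and Pes1 at -0.03. The values of Bop1 were 10.02, 9.95 and 9.80 in TG and 9.81, 9.81, 9.94 and 9.81 in WT, so TG replicate 3 was the lowest array of all 7.

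Nop16 and the nucleolar GTPase gene Gnl3 (nucleostemin) had differences of 0.24 and 0.28, neither of which passed (limma adjusted p = 0.0624 and 0.0833). For Nop16 every TG array was above every WT array. Nop2, an RNA methyltransferase gene, was at 9.62, 9.50 and 9.19 in TG and at 9.24, 9.14, 9.23 and 9.21 in WT. TG replicates 1 and 2 stood above every WT array, and TG replicate 3 stood within the WT range. Ppan and Wdr74 had differences of 0.13 each. Noc2l had one of -0.05, and a dimmer probe set gave -0.37, which did not pass (limma adjusted p = 0.188).

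Other large-subunit genes were level between the groups. Rrs1, whose yeast counterpart helps bring the small ribosomal RNA of the large subunit into place, was at 11.32, 11.21 and 11.11 in TG and at 11.07, 11.37, 11.08 and 11.24 in WT. Its 2 probe sets gave differences of 0.02 and -0.01. The RNA helicase gene Ddx18 was at 10.71, 10.56 and 10.31 in TG and at 10.64, 10.57, 10.60 and 10.41 in WT, with differences of -0.03 and 0.02 by probe set. Both genes had wide overlap, and the lowest value of Ddx18 was on TG replicate 3. Grwd1 was at 9.09, 8.97 and 8.70 in TG and at 8.88, 8.98, 8.87 and 8.94 in WT (difference 0.00, 95% interval -0.23 to 0.24). Its other probe sets gave -0.02 and 0.00, the last with the same value of 8.19 on all 7 arrays, which carries no information on the difference.

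In the box C/D particle, which methylates ribosomal RNA on the ribose, 0 of 4 genes passed, beside 8.11% of all genes higher and 2.56% lower. By limma 0 had an unadjusted p under 0.05, beside 20% of all genes higher and 11% lower. Fbl, encoding the methyltransferase fibrillarin, was at 11.998, 11.98 and 11.87 in TG and at 11.88, 11.87, 11.79 and 11.74 in WT (difference 0.13 ± 0.05 SE, limma adjusted p = 0.173; 0.15 by a second probe set). Nop58 was at 10.24, 10.24 and 10.28 in TG, above its WT values of 10.18, 10.11, 10.13 and 9.81. The lowest WT array of Nop58, replicate 4, lay well below the others, and the difference of 0.20 ± 0.09 (SE) did not pass (limma adjusted p = 0.215). Its partner Nop56 was at 11.25, 11.34 and 11.05 in TG and at 11.18, 11.13, 11.28 and 11.16 in WT (difference 0.03; -0.02 by another probe set). Rrp9, a protein of the U3 particle that guides the early cuts, had a difference of -0.04, with TG replicate 3 the lowest array at 6.38.

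In all 3 nucleolar scaffold and chaperone genes TG replicate 3 was the highest of the 7 arrays. Npm1, encoding the chaperone nucleophosmin, was at 14.20, 14.23 and 14.50 in TG and at 14.25, 14.19, 13.97 and 14.13 in WT. Ncl, encoding the pre-ribosomal RNA binding protein nucleolin, was at 14.11, 14.06 and 14.30 in TG and at 14.12, 14.08, 13.97 and 14.05 in WT. For both genes TG replicates 1 and 2 lay within the WT range and WT replicate 3 was lowest. Nolc1, encoding a chaperone of small nucleolar ribonucleoproteins, was at 10.13, 10.19 and 10.29 in TG and at 10.04, 10.16, 10.06 and 10.01 in WT. The differences were 0.17, 0.10 and 0.14, and none of the 3 genes passed (limma adjusted p = 0.270, 0.339 and 0.195). By limma 0 had an unadjusted p under 0.05, beside 20% of all genes higher and 11% lower. The 5 probe sets of Ncl gave -0.14 to 0.14.

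Of the 7 genes for processing and maturation of the small subunit none passed, beside 8.11% of all genes higher and 2.56% lower. By limma 1, Utp20, had an unadjusted p under 0.05 and was lower, beside 11% of all genes lower and 20% higher. Utp20, a component of the processome that cuts the precursor, was at 9.48, 9.28 and 9.19 in TG and at 9.62, 9.66, 9.47 and 9.46 in WT. The groups overlapped by 1 array, TG replicate 1, and the difference was -0.23 ± 0.09 (SE, limma adjusted p = 0.151). Tsr1, whose yeast counterpart acts in late maturation of the small subunit, was at 10.70, 10.61 and 10.54 in TG and at 10.52, 10.54, 10.32 and 10.47 in WT (difference 0.15 ± 0.07 SE, limma adjusted p = 0.207). Its lowest TG array equalled its highest WT array. The other 5 lay between -0.09 for Nop14 and 0.20 for Bysl, with 0.16 for the endonuclease gene Nob1, 0.07 for Wdr43 and -0.04 for Rrp12.

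RNA polymerase I genes had differences on both sides of 0, and 0 of 6 passed, beside 8.11% of all genes higher and 2.56% lower. At an unadjusted p under 0.05 limma gave 2 higher and 1 lower, beside 20% and 11% of all genes. Polr1b, encoding a catalytic core subunit, was at 8.20, 8.23 and 7.93 in TG, above its WT values of 7.83, 7.74, 7.68 and 7.72. The difference of 0.38 ± 0.09 (SE) missed the threshold (limma adjusted p = 0.0513), and without TG replicate 3 it was 0.47 and passed (limma adjusted p = 0.0172). It did not pass when any other array was left out (limma adjusted p = 0.0842 to 0.149). Polr1c, a subunit that RNA polymerase III shares, was at 10.81, 10.85 and 10.63 in TG and at 10.54, 10.41, 10.43 and 10.63 in WT. Its difference of 0.26 ± 0.08 (SE) did not pass (limma adjusted p = 0.0931), and a dimmer probe set gave 0.24.

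Polr1a, encoding the largest subunit, was at 8.48, 8.38 and 7.98 in TG and at 8.35, 8.37, 8.40 and 8.36 in WT. The WT arrays lay close together, with an SD of 0.02, and the TG arrays lay above, among and far below them. Its 3 probe sets gave -0.09, 0.14 and 0.10. Ubtf, encoding the factor UBF that keeps ribosomal RNA genes open for transcription, was at 9.43, 9.41 and 9.10 in TG, below its WT values of 9.54, 9.70, 9.50 and 9.48. Its difference of -0.24 ± 0.10 (SE) did not pass (limma adjusted p = 0.168). The initiation factor gene Rrn3, which couples polymerase I to growth signals, had a difference of -0.05. Ddx21, a helicase gene that acts in transcription and processing, was at 10.95, 10.94 and 10.72 in TG and at 10.80, 10.91, 10.80 and 10.88 in WT (difference 0.02; -0.06 by another probe set).

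**Figure D2:**
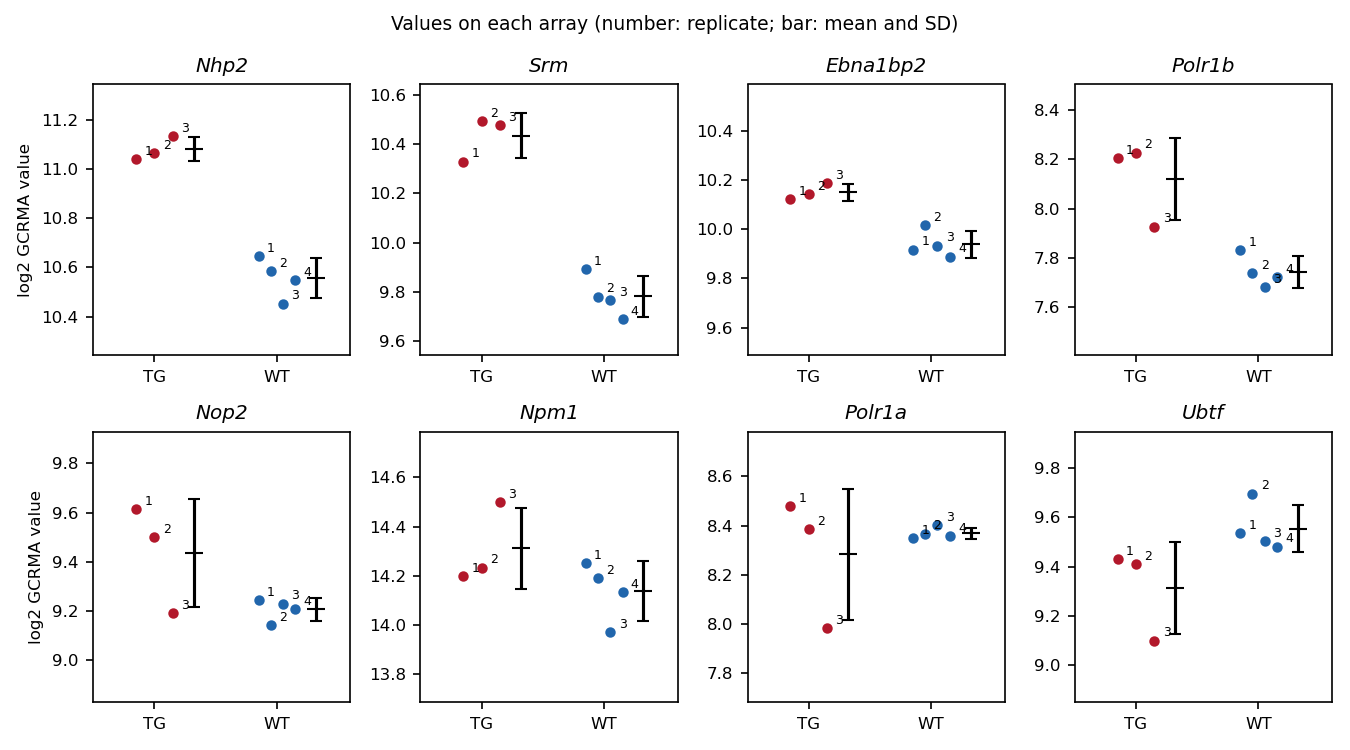
Log2 GCRMA values of 8 member genes on each array, with TG (red, 3 arrays) left of WT (blue, 4 arrays), the replicate number beside each point and the group mean with its SD in black. Every panel spans the same number of log2 units. Nhp2, Srm and Ebna1bp2 separate the groups with close TG values; in Polr1b, Nop2, Polr1a and Ubtf TG replicate 3 is the lowest TG array, and in Npm1 the highest.

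The TG arrays differed from each other for many members. TG replicate 3 was the lowest TG array for 26 of the 40 members and the highest for 10, where over all genes tested it was lowest for 49.2% and highest for 35.0%. For 15 members (37.5%) TG replicates 1 and 2 averaged above the WT mean while TG replicate 3 was below it, a pattern found in 17.6% of all genes; 22 members were above the WT mean in both, 3 below it in both and 0 showed the opposite pattern. The median difference from the WT mean was 0.16 for TG replicates 1 and 2 and 0.01 for TG replicate 3, where over all genes it was 0.03 and -0.03. TG replicate 3 was furthest below the WT mean for Ubtf (-0.46), Polr1a (-0.39), Rrp9 (-0.37) and Utp20 (-0.36). Srm and Nhp2 were as high there (0.70 and 0.58) as on TG replicates 1 and 2 (0.63 and 0.50). With TG replicate 3 left out, 4 members passed, Srm, Nhp2, Polr1b and Nop2, and 0 passed as lower, beside 6.81% of all genes higher and 2% lower. The spread within groups was a median SD of 0.13 in TG and 0.08 in WT for the members, and 0.14 and 0.11 for all genes. T cell markers summed to 3348 in linear signal on TG replicate 3, against 104 and 169 on TG replicates 1 and 2 and 85.7 to 91.4 on the WT arrays. TG replicate 3 also exceeded TG replicates 1 and 2 in blood progenitor markers (3856, against 844 and 1206) and natural killer cell markers (2175, against 477 and 506). The same held for proliferation markers (28701, against 16108 and 18666). Its granulocyte, erythroid, and macrophage and monocyte sums were the highest of TG too. Single granulocyte markers differed in this: Mpo, Elane, Prtn3 and Ctsg were highest on TG replicate 3. S100a8, S100a9, Ltf, Camp and Ngp were highest on TG replicate 1, and Lcn2 on TG replicate 2. The B cell marker sum was lowest on TG replicate 3, at 87304.5, against 117093 and 117702 on TG replicates 1 and 2 and 125897 to 131831 in WT. The part of these cells in the pattern was not tested. In such mixed RNA, fewer cells of a type and less RNA per cell cannot be told apart.

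**Figure D3:**
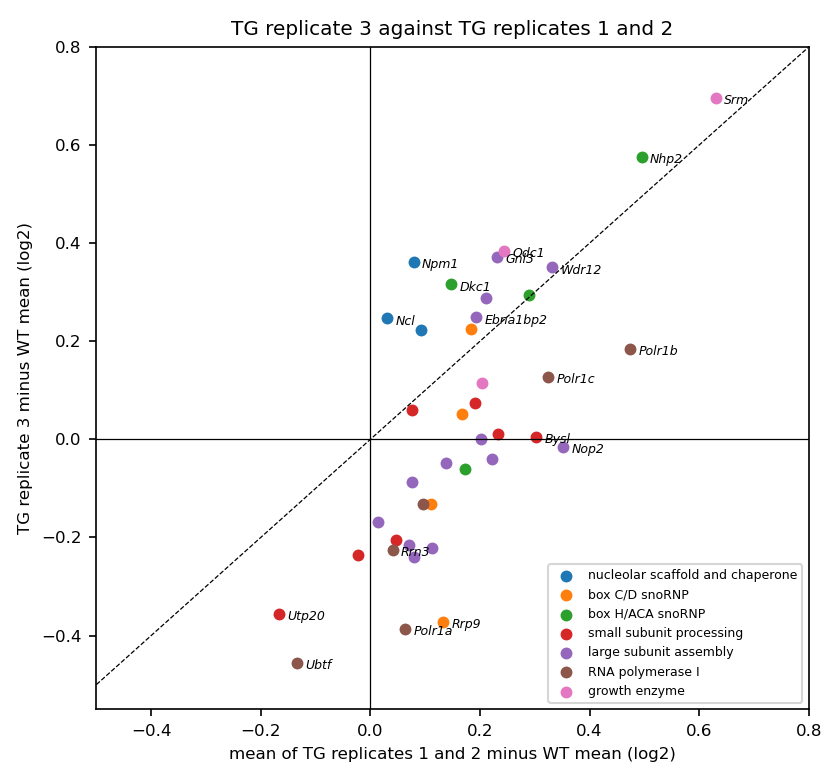
Difference from the WT mean, in log2 units, of TG replicate 3 (vertical axis) against the mean of TG replicates 1 and 2 (horizontal axis) for 40 member genes coloured by role, with the line of equality dashed. Srm and Nhp2 lie near the line at the upper right, most RNA polymerase I genes lie below it, and Npm1 and Ncl lie above it.

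How far the counts depend on the arrays was uneven. With TG replicate 2 left out 0 members passed by limma, where 0.841% of all genes passed as higher. At an unadjusted p under 0.05 limma gave 8 members in that fit, both directions together. The share of all genes at that threshold was not computed for it. With array weights, which gave TG replicate 2 a weight of 4.07 and TG replicate 3 one of 0.195, 13 members were higher and 1 (Utp20) lower, beside 19.3% and 9.75% of all genes. Counted by probe set, 4 of 72 tested passed as higher and 0 as lower (all genes: 5.63% of probe sets higher); the 4 were both probe sets of Nhp2 and 1 each of Srm and Ebna1bp2. Among 24 members with several tested probe sets, 10 had probe sets that differed in sign. Against the female WT replicates 1 and 2 alone, Srm, Nhp2 and Ebna1bp2 were higher by 0.60, 0.46 and 0.18. Against the male replicates 3 and 4 they were higher by 0.71, 0.58 and 0.24.

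Outside the members, 107 genes for RNA polymerase I, small and large subunit processing and the RNA exosome were tested. Of these, 4 (3.74%) passed as higher and 0 as lower, beside 8.11% and 2.56% of all genes. Their median change was -0.01. At an unadjusted p under 0.05 limma gave 11 higher and 1 lower, beside 20% and 11% of all genes. Rrp1b, a nucleolar protein gene, rose by 0.53 ± 0.08 (SE, limma adjusted p = 0.0188), though its dimmer probe sets did not pass. Noc4l, of the small subunit pathway, rose by 0.37 (limma adjusted p = 0.0233) and Rpf2, of the large, by 0.31 (limma adjusted p = 0.0390). The probe sets of Noc4l and Rpf2 are of kinds that can bind related transcripts, and the dimmer probe sets of both genes did not pass. Rsl1d1 also rose (0.20). The other RNA polymerase I genes had 0 of 10 passing and the exosome 0 of 13, with 0 and 4 at an unadjusted p under 0.05 by limma. Of 18 RNA polymerase III genes 0 passed (median -0.10; unadjusted, 1 higher and 2 lower by limma). The ribosomal proteins themselves had 1 of 41 higher, Rpl14, by 0.51 ± 0.09 (SE, limma adjusted p = 0.0235), and a median of 0.01. Ribosomal protein probe sets can also bind processed pseudogene copies, so this value is uncertain.

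The largest rises near the growth group were in nucleotide enzymes. Of 8 tested genes of polyamine and pyrimidine synthesis that are no members, 2 rose (25%) and 0 fell. Over all genes 8.11% rose and 2.56% fell. Uck2, the uridine and cytidine kinase gene of nucleotide salvage, was at 8.38, 8.76 and 9.76 on the TG arrays, against 6.61, 5.73, 5.79 and 6.02 on the WT arrays. It rose by 2.93 ± 0.37 (SE, limma adjusted p = 0.0129), and a second probe set by 2.16 (limma adjusted p = 0.0379). Its dimmest probe set gave 1.07 and did not pass (limma adjusted p = 0.0933). Ctps, which makes cytidine triphosphate, was at 9.68, 9.85 and 9.83 in TG and at 9.40, 9.26, 8.99 and 9.27 in WT, a rise of 0.56 ± 0.10 (SE, limma adjusted p = 0.0295). Both genes had all TG arrays above all WT arrays, and Uck2 was highest on TG replicate 3. Myc, the transcription factor gene, was at 10.52, 10.50 and 10.67 in TG and at 9.99, 9.73, 9.39 and 9.53 in WT. The difference was 0.90 ± 0.15 (SE, limma adjusted p = 0.0221). The part of Myc in the changes of these genes was not tested.

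**Figure D4:**
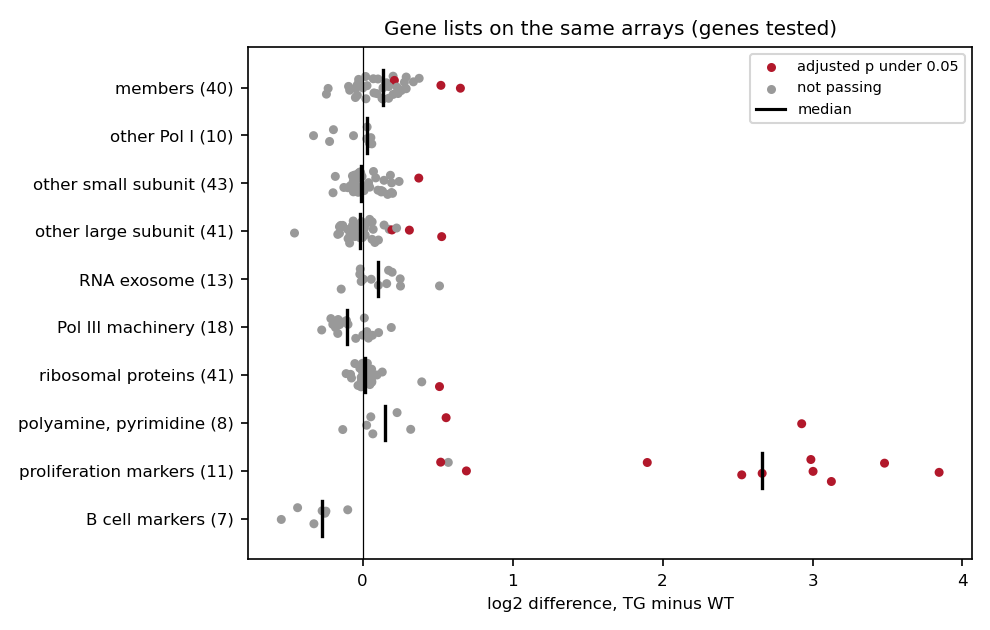
Log2 difference between TG and WT B-cells (horizontal axis) for every tested gene of 10 lists, with the number of genes in brackets, red for genes that passed an adjusted p of 0.05 and a black bar at each median. Biogenesis and ribosomal protein genes lie near 0, 10 of 11 proliferation markers passed as higher, and B cell markers lie slightly below 0.

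On the same arrays most tested proliferation, granulocyte, erythroid and blood progenitor markers rose in TG, and other lists did so in part or not at all. Of 11 tested proliferation markers 10 rose and 0 fell, with a median change of 2.66 on the log2 scale against 0.13 for the biogenesis members, and their summed linear signal was 16108 to 28701 in TG and 10791 to 11863 in WT. All 6 tested granulocyte markers rose. The full list, of which 7 of 10 were at or under background on every WT array, summed to 15723 to 31757 in TG and 74.3 to 249.8 in WT. Ltf, Camp, Ngp and Lcn2 were not tested. In TG, Ltf and Camp were under background on replicates 2 and 3, Ngp was so on replicate 2, and Lcn2 was at 3.91 to 4.01. All 3 tested erythroid markers rose, but the filter fixed this direction. A gene at background on every WT array was tested only if it was above 4 on all 3 TG arrays. This held for every tested erythroid marker and for some granulocyte, blood progenitor, natural killer and T cell markers. The 8 measured erythroid markers summed to 229 to 1587 in TG, where Epor, Alas2 and Hba-a1 were at background on every array. In WT they summed to 40.3 to 41.7, and all 8 were at background. All 4 tested blood progenitor markers rose, with sums of 844 to 3856 in TG, where Gata2 was at background, and 144 to 189 in WT, where Cd34 and Gata2 were. Of 3 tested natural killer cell markers 2 rose, with sums of 477 to 2175 in TG, where Ncr1 was at background, and 124 to 186 in WT, where Ncr1, Klrd1, Gzma and Gzmb were. Of 4 tested macrophage and monocyte markers 1 rose, and the sums overlapped, at 2205 to 4194 in TG and 173 to 3082 in WT, and Cd14 and Marco were at background in both groups. Of T cell markers 0 of 2 tested passed by limma, with 2 at an unadjusted p under 0.05; Cd3e, Cd3d, Cd3g, Cd4, Cd5 and Cd28 were at background on every WT array. B cell markers had 0 of 7 passing (unadjusted, 4 lower by limma), with a median of -0.27. The part of these other cells in the rises of Srm, Nhp2 and Ebna1bp2 was not tested.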

How the data were processed

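Splenic B-cell RNA of 3 TG and 4 WT mice was hybridised to Affymetrix arrays, 1 per sample, per the labels' protocols. The values the authors deposited are on a log2 scale. GCRMA is the method that the submitters' processing notes name; no version of it is named there. GCRMA corrects background by probe sequence, quantile normalizes and summarises each probe set. On each array 35.6% to 37.1% of the values lie at the lowest value, 2.17, so differences of dim genes are compressed. Quantile normalization also removes any shift shared by most genes. Scanner files were not used here, so no batch could be tested. Precision is limited by how few arrays there are.

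Of 45101 probe sets 64 are controls and were left out, 34945 name 1 gene, 932 several and 9160 none; 0 symbols changed when updated through Entrez identifiers in RefSeq (GRCm38.p6). Npm3 and Mrto4 have no probe set naming them alone. The 20994 probe sets above 4 on at least 3 of 7 arrays were fitted with limma 3.58.1 in R 4.3.3 (lmFit, eBayes with intensity trend, two-sided, Benjamini-Hochberg over all probe sets tested). The 9517 genes tested are the brightest probe sets. The fit was tested on simulated data with log2 changes of 1 and 2, of which it recovered 75 and 94 of 100. The largest change of a member was 0.65, so the simulation does not show how well changes of the members' size are found. The members and lists were chosen with earlier results of these data known. Values on every array are given for the 2 members of smallest p in each role list, members whose probe sets differ in sign and the growth enzymes; Nop2 and Ubtf were added after their values were seen. From other lists up to 2 genes of smallest p that passed in each direction are named, with Myc; Rsl1d1 was added. Summed marker signals are sums of 2 to the power of the values. Alternatives changed the filter, scaling, variance model, weights and probe set choice, added Xist or the replicate number, or left out arrays.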

Additional observations from a re-analysis of the deposited data

Results flagged for a closer look

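In the WT group of 4 arrays, Dixon's test flagged 1 array for 4 of the 40 members. It scores the gap to the nearest value against the range, so a small gap among close values can be flagged. Its nominal rate of about 1 in 20 groups presumes untied values, and Rrp12 and Rrn3 each had equal values on WT arrays. The share over all genes was not computed. Nop14 was at 9.37 on WT replicate 1, against 9.17 to 9.20 on the others. Bop1 was at 9.94 on WT replicate 3, against 9.81 on each of the others. Rrp12 was at 7.18 on WT replicate 3, against 7.24 on each of the others. Rrn3 was at 8.92 on WT replicate 2, against 8.69 to 8.72 on the others. None of the 4 genes passed the test between the groups.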

How the results depend on the processing

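Over 19 alternatives the changes of Srm and Nhp2 stayed at 0.60 to 0.70 and 0.46 to 0.55, and each passed in 17. Ebna1bp2 passed in 3, and over all 19 its limma adjusted p ran from 0.0188 to 0.244. Instead of 3 members higher and 0 lower, array weights gave 13 and 1, the mean of a gene's tested probe sets gave 5 higher (9.19% of all genes), and leaving out 1 array gave 0 (without TG replicate 2) to 4, with 0.841% to 8.44% of all genes higher over these fits. The other biogenesis genes had 4 higher in the main fit, where 8.11% of all genes were. In brackets is that share for each alternative. There were 17 with array weights (19.3%) and 2 without _x_at and _s_at probe sets (7.83%). Without both TG replicate 3 and WT replicate 4 there was 1 (3.60%). There were 0 with the Xist covariate (1.44%) and 0 with no filter (0.55%). Leaving out 1 array gave 0 to 5. It gave 0 without TG replicate 2 (0.841%), WT replicate 2 (1.13%) or WT replicate 3 (2.39%). It gave 1 without WT replicate 4 (2.48%), 2 without WT replicate 1 (3.49%) and 5 without TG replicate 3 (6.81%). At an unadjusted p under 0.05 limma gave 7 higher with the covariate and 15 with no filter. The members' median of 0.13 was 0.092 with the Xist covariate and 0.10 to 0.16 with 1 array left out. A replicate block left out WT replicate 4, which has no partner. By limma 0 members and 0 other genes were then higher, beside 3 of all 9517 genes. At an unadjusted p under 0.05 limma gave 8 members and 6 others, with no share of all genes computed at that threshold. The change of Srm was 0.62 and that of Nhp2 was 0.52. The arrays share only a number: same-numbered arrays had correlations of deviations of -0.04, -0.14 and -0.29, and no TG array correlated best with its own number. Polr1b passed in 7 alternatives and Wdr12 in 5. Of the 40 members 12, all between -0.09 and 0.08, changed sign in some alternative without passing in any; 28 kept their sign in every alternative that held them.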

Other observations

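The male WT replicates 3 and 4 were both below the female WT replicates 1 and 2 for 14 of the 40 members (35.0%), against 17.8% of all genes tested, and both above them for 2 members, against 18.4%. Values that are equal to 8 decimals on several arrays, which GCRMA with quantile normalization can give, occurred for 8 of the 40 members and for 35.3% of all genes. Among the exosome genes, which trim ribosomal RNA precursors, 0 of 13 passed by limma with a median change of 0.11. At an unadjusted p under 0.05 limma gave 4 of the 13 as higher in TG, beside 20% of all genes.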
